A study of Homo sapiens with 6 samples.

Results

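The genes described here are 30 genes of cholesterol and fatty acid synthesis and of the response to sterols, chosen by name: 7 of the mevalonate pathway, 11 of the steps from squalene to cholesterol, 5 of sterol sensing and response, 4 of fatty acid synthesis and 3 of sterol efflux and the response to liver X receptors (LXR). All 30 were found among the 28181 genes of the deposited files by matching Ensembl identifiers to symbols, and 29 passed the filter on low values. The genes were measured by RNA sequencing in UE7T-9 cells, human mesenchymal stem cells from bone marrow that are kept growing by telomerase (hTERT) and the E7 gene of a papillomavirus. UE7T-9 SHC4 (n = 3) carried the coding region of SHC4, an adaptor protein that links receptor tyrosine kinases to downstream signalling, delivered by lentivirus, driven by a CMV promoter and selected with puromycin. The 3 samples of UE7T-9 Cont are called the controls below. By the methods of the study they carried GFP in a vector of the same kind, with lentivirus, CMV promoter and puromycin selection. The labels, by contrast, call them nontarget with a WT genotype. Both groups grew in DMEM, with fetal bovine serum and antibiotics by the methods of the study. The design text speaks of clones, and the labels give 3 biological replicates per group without saying whether these were separate clones, infections or cultures, so the p-values measure only the spread between these samples.

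Cholesterol and fatty acids are built from acetyl-CoA by enzymes whose genes are largely controlled by the same transcription factors, the sterol regulatory element-binding proteins (SREBPs). SREBP precursors sit in the membrane of the endoplasmic reticulum with their escort SCAP, and INSIG proteins hold them there while sterols are plentiful. When sterols fall, the factors are cut free and switch on genes for sterol and lipid synthesis. Excess sterol is read by the liver X receptors, which switch on genes for sterol export. In marrow stromal cells these pathways supply membrane lipid to growing cells and triglyceride to cells that turn into adipocytes.

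The values are normalized counts, that is, gene counts divided by 1 size factor per library, from 18144993 to 27721397 reads per library. SHC4 itself was measured at 56.5 to 157 normalized counts in the controls and at 119166 to 155006 in UE7T-9 SHC4, which matched the labels. The 6 mesenchymal markers of the list (ENG, NT5E, THY1, PDGFRB, COL1A1 and COL1A2) were detected in every library, with a summed level of 172070 to 586150 in the controls and 338500 to 523250 in UE7T-9 SHC4, most of it from COL1A1 and COL1A2. PDGFRB was at 1487 to 4122 in the controls and at 5178 to 6635 in UE7T-9 SHC4 (limma adjusted p = 0.162, DESeq2 adjusted p = 0.0171), and THY1 at 2286 to 7742 and 7512 to 9569.9 (0.234 and 0.145). Of the markers of other cell types, some were near 0: the leukocyte marker PTPRC lay between 0 and 6.82 normalized counts, the endothelial marker CDH5 was at 0 in 4 of 6 libraries, and the adipocyte marker ADIPOQ in 5 of 6. Others were detected in every library, among them CD14 (52.7 to 88.3), CD34 (39.6 to 52.7), VWF (34.4 to 65.3), PECAM1 (7.80 to 38.4), FABP4 (16.7 to 68.9) and PPARG (534 to 809.96). All 6 proliferation markers had a lower mean in UE7T-9 SHC4, with a summed level of 25978 to 31898 in the controls and 21763 to 23000 in UE7T-9 SHC4. DESeq2 called CDK1 and PCNA of these lower (adjusted p = 0.0332 and 0.0402) and limma none. The part of these markers in the results below was not tested, and in such bulk RNA fewer cells of a kind and less RNA per cell cannot be told apart. Replicate 1 of each group stood apart in some of these genes: COL1A1 was at 315042 in UE7T-9 Cont replicate 1 and at 87857 and 67813 in replicates 2 and 3, and it was at 276719, 130035 and 122241 in UE7T-9 SHC4. Without UE7T-9 Cont replicate 1, limma called 2 of the 6 mesenchymal markers (lowest adjusted p = 0.000698), where it called 5.68% of all genes. It then called none of the other markers. For the members and the related genes introduced below, the value without replicate 1 of a group is given where leaving it out changes a call.

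Promoters are shown for 4 members, 2 of which hold one of the sequences that SREBPs are known to bind and 2 of which are enzymes with large spread between libraries. They come from RefSeq on GRCh38.p14, where 25 of the 30 members had an entry. Printed is the stretch of the RefSeq window of 250 bases before the start that lies outside the gene in GENCODE 29. It is read 5′ to 3′ on the strand of the gene. Capitals mark TCACNCCAC (a form of the sterol regulatory element), ATCACGTGA (an E-box form) or CCAAT (the NF-Y box) on either strand. HMGCS1 (chr5:43313513-43313662, minus strand) encodes the enzyme that makes HMG-CoA. INSIG1 (chr7:155297628-155297775, plus strand) encodes the retention protein, SCD (chr10:100346983-100347123, plus strand) the stearoyl-CoA desaturase, and SREBF2 (chr22:41832855-41833078, plus strand) the SREBP that mainly drives sterol genes.
HMGCS1: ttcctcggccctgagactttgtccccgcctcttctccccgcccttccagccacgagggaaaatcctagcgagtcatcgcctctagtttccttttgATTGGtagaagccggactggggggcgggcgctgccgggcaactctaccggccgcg
INSIG1: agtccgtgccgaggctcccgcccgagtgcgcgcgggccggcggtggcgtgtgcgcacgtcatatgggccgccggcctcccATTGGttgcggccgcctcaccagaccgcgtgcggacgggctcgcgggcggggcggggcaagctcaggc
SCD: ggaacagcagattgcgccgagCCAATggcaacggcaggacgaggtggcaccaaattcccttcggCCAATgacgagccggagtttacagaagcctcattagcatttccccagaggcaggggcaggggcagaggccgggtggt
SREBF2: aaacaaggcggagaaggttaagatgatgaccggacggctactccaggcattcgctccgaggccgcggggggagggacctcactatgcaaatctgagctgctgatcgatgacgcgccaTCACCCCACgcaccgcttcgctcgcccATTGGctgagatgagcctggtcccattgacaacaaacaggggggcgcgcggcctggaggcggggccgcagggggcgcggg

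Over the whole window before each start, on both strands, CCAAT was found in 24 of 33 promoters of the members (72.7%) and in 32.0% of all 35116 promoters. The GC box GGGCGG, known to bind Sp1, was found in 30 of 33 (90.9%), beside 42.6% of all promoters and 58.4% of those of the tested genes. TCACNCCAC was found in 1 promoter of the members, that of SREBF2 at -133 to -125, beside 0.883% of all promoters. ATCACGTGA was likewise found in 1, that of INSIG1 at -56 to -48 as TCACGTGAT, past the printed stretch, beside 0.225% of all promoters. None of the 4 searched sequences contains another, although TCACNCCAC and ATCACGTGA share the letters TCAC. These matches describe letters in a window and not binding, and other forms of these elements were not searched.

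Between the groups, no member passed the test. With limma on log2(normalized count + 1) across 23040 genes, 0 of 29 members had an adjusted p below 0.05, where 0.0651% of all genes tested were called. Of the members, 1 (ABCA1) had an unadjusted p below 0.05, against 14.4% of all genes. DESeq2 on the recovered reads called 0 of 29 members (lowest adjusted p = 0.0862) where it called 4.14% of its genes, and edgeR called 0 (lowest adjusted p = 0.238) where it called 0.0694%. The log2 fold change was above 0 in 19 members and below 0 in 10, with a median of 0.19, beside a median of -0.004 over all genes, of which 49.7% were above 0. Members above 0 numbered 17 under library size scaling and 20 under TMM. The changes ran from -0.97 (ABCA1) to 0.64 (SCD). The 95% intervals of the log2 fold change reached 0.26 to 1.05 to either side (median 0.51), so that for a typical member a change smaller than that could not be told from none with these libraries. These intervals are not adjusted for the number of genes tested, so a call needed a larger change still.

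**Figure D1:**
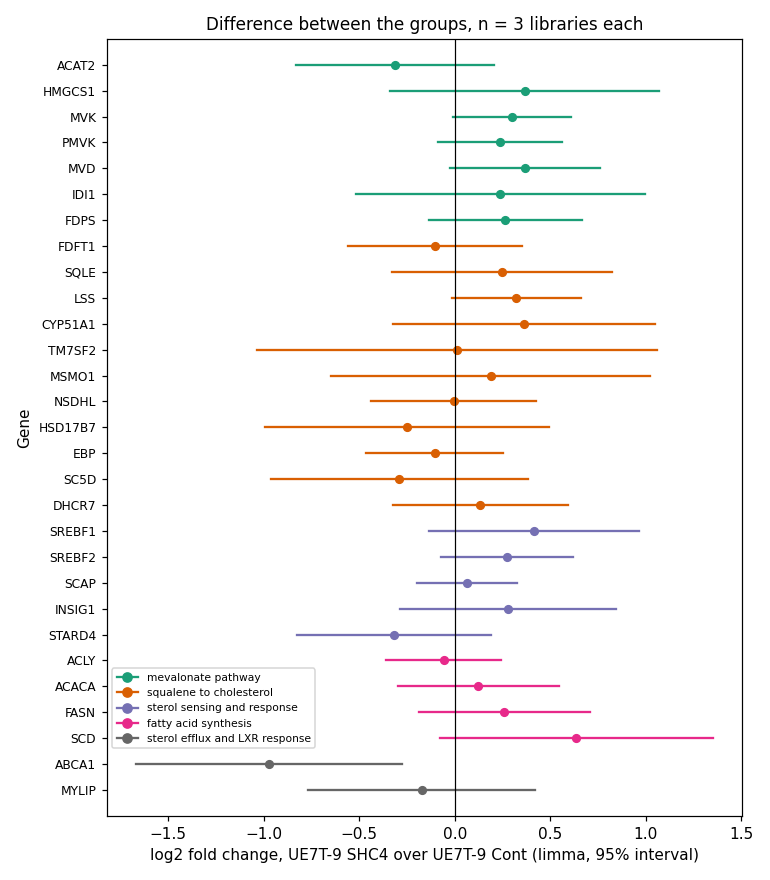
Each point is the log2 fold change of UE7T-9 SHC4 over UE7T-9 Cont for 1 of the 29 tested members, with its 95% interval from limma (n = 3 libraries per group), coloured by role. The intervals of 28 of 29 members hold 0, and that of ABCA1 lies below it.

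The 29 members made up 0.622% ± 0.106 (SD, n = 3) of reads in the controls and 0.713% ± 0.131 (SD, n = 3) in UE7T-9 SHC4. SCD alone accounted for 0.185% ± 0.0502 and 0.265% ± 0.0670 of reads. Per kilobase of exon, the same 5 members led in both groups: SCD at a mean of 7502 normalized counts per kilobase in the controls and 11466 in UE7T-9 SHC4, then INSIG1, MSMO1, ACLY and FASN. At the other end stood CYP51A1, MYLIP, TM7SF2 and ABCA1, all with at most 108 normalized counts per kilobase.

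The mevalonate pathway turns acetyl-CoA into farnesyl diphosphate, the precursor of sterols and of the lipid anchors of proteins. Of its 7 members 6 had a log2 fold change above 0 and none was called, with a median of 0.27. HMGCS1 was at 3765, 7186 and 4105 normalized counts in UE7T-9 Cont replicates 1, 2 and 3 and at 4174, 6185 and 9201 in those of UE7T-9 SHC4. Replicate 2 was the highest of the controls and replicate 3 the highest of UE7T-9 SHC4, and the groups overlapped (log2 fold change 0.37, SE 0.31, adjusted p = 0.634). The log2 fold change of HMGCS1 was 0.08 without UE7T-9 SHC4 replicate 3 and 0.66 without UE7T-9 Cont replicate 2. MVD, which makes isopentenyl diphosphate, ran from 1218 to 1758 in the controls and from 1554 to 2171 in UE7T-9 SHC4, a log2 fold change of 0.37 (SE 0.17, adjusted p = 0.377). MVK, the mevalonate kinase, had the lowest adjusted p of the pathway, with 651 to 857 in the controls and 849 to 953 in UE7T-9 SHC4 (log2 fold change 0.30, SE 0.14, adjusted p = 0.364).

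The other members of the pathway differed in their spread. PMVK, the phosphomevalonate kinase, lay between 538 and 603 in the controls and between 602 and 786 in UE7T-9 SHC4 (log2 fold change 0.24). IDI1, the isomerase, ran from 1357 to 3094 and from 1673 to 3746 (0.24), a range of 2.28-fold and of 2.24-fold within the groups. FDPS, which makes farnesyl diphosphate, ran from 2178 to 3074 and from 2695 to 3752 (0.26). ACAT2, the cytosolic thiolase at the start of the pathway, was the exception in direction, with 2146 to 3767 in the controls and 1880 to 2992 in UE7T-9 SHC4 (-0.31). Of its exon bases 33.9% are shared with SOD2-OT1, 26.5% with SOD2 and 9.23% with TCP1, all on the opposite strand, and as the strand setting of the counts is not given in the sources used here, the source of its reads is uncertain. The same holds, for smaller shares, of FDPS with RUSC1-AS1 (18.6%), HMGCS1 with AC114947.2 (15.0%) and IDI1 with IDI2-AS1 (14.8%). In MVK, FDFT1, LSS, CYP51A1, SREBF1, SREBF2 and STARD4 the share of exon bases on the opposite strand of another gene was at most 6.92%.

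The 11 members from squalene to cholesterol include squalene synthase (FDFT1), squalene epoxidase (SQLE), lanosterol synthase (LSS) and the enzymes that trim and reduce lanosterol. Of these, 6 had a log2 fold change above 0 and 5 below 0, with a median of 0.01, and none was called. LSS had the lowest adjusted p of them, with 4004 to 4994 normalized counts in the controls and 4808 to 6114 in UE7T-9 SHC4 (log2 fold change 0.32, SE 0.15, adjusted p = 0.369). MSMO1, a sterol methyl oxidase, was at 3510.2, 7778 and 6529.9 in the control replicates and at 3696, 7703 and 9244 in those of UE7T-9 SHC4. In each group replicate 1 held less than replicates 2 and 3, and the group difference was small beside this (log2 fold change 0.19, SE 0.37, adjusted p = 0.858). TM7SF2, a sterol reductase, was at 146, 469 and 416 in the controls and at 172, 403 and 420.4 in UE7T-9 SHC4, again with replicate 1 of both groups far below the others and nearly equal group means (log2 fold change 0.01, SE 0.46).

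The remaining enzymes of these steps followed in both directions. CYP51A1, the lanosterol demethylase, had a log2 fold change of 0.36 (SE 0.30), SQLE of 0.25 (SE 0.26) and DHCR7, the last reductase of the route, of 0.13 (SE 0.20). NSDHL, a dehydrogenase, was at -0.01, FDFT1 at -0.10 and EBP, the sterol isomerase, at -0.11. HSD17B7, a ketosteroid reductase, ran from 523 to 1130.2 in the controls and from 451 to 961 in UE7T-9 SHC4 (-0.25), and SC5D, the desaturase, from 1360 to 2817 and from 1215 to 2274 (-0.29). A pseudogene named after HSD17B7 had a mean of 97.1 normalized counts and 1 of those named after CYP51A1 a mean of 10.2, so part of these genes' reads may have been assigned elsewhere.

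Of the 5 members of sterol sensing and response, 4 had a log2 fold change above 0, with a median of 0.27 and none called. INSIG1 was at 12002, 14102 and 7947 in the control replicates and at 10642, 13109 and 17134 in those of UE7T-9 SHC4. The values interleaved apart from the lowest, in UE7T-9 Cont replicate 3, and the highest, in UE7T-9 SHC4 replicate 3 (log2 fold change 0.28, SE 0.25, adjusted p = 0.655). Without that lowest library the log2 fold change of INSIG1 was 0.04. SREBF2 lay between 5780.3 and 7347 in the controls and between 6899.9 and 8688 in UE7T-9 SHC4 (log2 fold change 0.27, SE 0.15, adjusted p = 0.455). SCAP, the escort, was among the steadiest members, at 1447 to 1552 and 1449 to 1684 (0.06). STARD4, which carries cholesterol between membranes, was at 2341 to 4036 and 2269 to 3268 (-0.32, adjusted p = 0.557).

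SREBF1 encodes the SREBP that mainly drives fatty acid genes and is itself a target of LXR. It was at 4582, 2895 and 2231 normalized counts in the control replicates and at 4874, 3565 and 4029 in those of UE7T-9 SHC4. Replicate 1 was the highest of each group, and UE7T-9 Cont replicate 1 lay within the range of UE7T-9 SHC4. With all 6 libraries the log2 fold change was 0.41 (SE 0.24, adjusted p = 0.474). Without UE7T-9 Cont replicate 1 it was 0.70 with an adjusted p of 0.0496 in limma, in a fit that called 1311 of 23087 genes (5.68%, 2.99% with UE7T-9 SHC4 above), and SREBF1 was then the only 1 of the 29 members called.

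**Figure D2:**
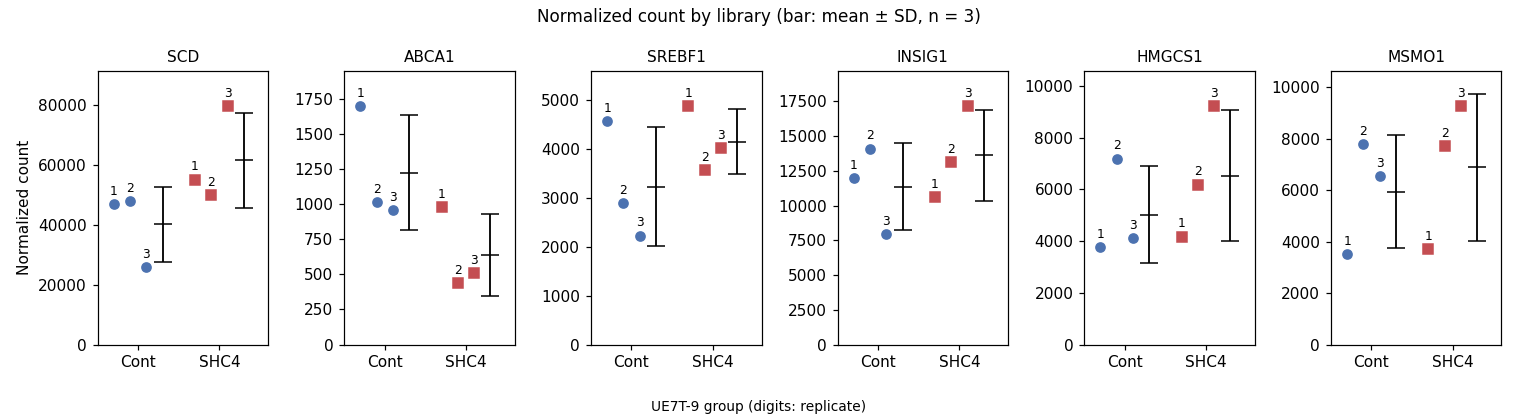
Normalized count of 6 members in each library, with the replicate number above each point, circles for UE7T-9 Cont, squares for UE7T-9 SHC4, and bars for mean ± SD (n = 3). The SCD groups do not overlap, whereas in HMGCS1 and MSMO1 replicate 1 is the lowest of both groups and in ABCA1 and SREBF1 the highest of both.

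Fatty acid synthesis starts with ACLY, which makes cytosolic acetyl-CoA from citrate, continues with ACACA, which carboxylates it, and FASN, which builds palmitate, and ends here with SCD, which puts a double bond into stearoyl-CoA and palmitoyl-CoA. SCD was the most abundant member and the one with the largest log2 fold change above 0. It was at 47058, 47813 and 25807 normalized counts in the control replicates and at 55104, 49828 and 79512 in those of UE7T-9 SHC4. All 3 UE7T-9 SHC4 values were above all 3 UE7T-9 Cont values, by a narrow margin between 47813 and 49828, with replicate 3 of the controls far below the rest and replicate 3 of UE7T-9 SHC4 far above. The control mean was 40226 ± 12493 (SD, n = 3) and that of UE7T-9 SHC4 61481.5 ± 15836 (SD, n = 3). The log2 fold change was 0.64 (SE 0.32, adjusted p = 0.402), a 1.55-fold difference that did not pass the test in limma. An exact two-sided permutation test of the 3 against 3 libraries gave p = 0.1, the smallest that this design allows. The log2 fold change was 0.34 when replicate 3 of the controls was left out and 0.44 when that of UE7T-9 SHC4 was.

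SCD was the only 1 of the 29 members whose groups did not overlap (3.45%), where 19.3% of all tested genes did not overlap, 9.13% with UE7T-9 SHC4 above. FASN was at 12955, 12146 and 8591 in the control replicates and at 14404, 11344.5 and 14171 in those of UE7T-9 SHC4. Its lowest value was in UE7T-9 Cont replicate 3, as for SCD, INSIG1 and SREBF1, and the others interleaved (log2 fold change 0.26, SE 0.20, adjusted p = 0.588). ACACA lay between 1906 and 3099.8 in the controls and between 2292 and 3010.1 in UE7T-9 SHC4 (0.12). ACLY had the narrowest range of the tested members over the 6 libraries, 1.13-fold, with 8610.3 to 9342 in the controls, 8241 to 8971 in UE7T-9 SHC4 and a log2 fold change of -0.06 (SE 0.13, adjusted p = 0.876).

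Of the members that LXR switches on outside synthesis, ABCA1 and MYLIP were tested, and the log2 fold change of both was below 0 with neither called. ABCA1, the membrane pump that hands cholesterol to apolipoprotein A-I, was at 1694, 1015 and 958 normalized counts in the control replicates and at 976, 439 and 507 in those of UE7T-9 SHC4. The groups overlapped only in that UE7T-9 SHC4 replicate 1 lay just above UE7T-9 Cont replicate 3, and replicate 1 was the highest of each group. The control mean was 1222 ± 409.6 (SD, n = 3) and that of UE7T-9 SHC4 641 ± 292 (SD, n = 3). The log2 fold change was -0.97 (SE 0.31), a 1.96-fold lower level. The adjusted p was 0.220 in limma (0.0115 before adjustment), 0.0862 in DESeq2 and 0.238 in edgeR, so that none of the 3 tools called ABCA1. The log2 fold change kept its sign when any 1 library was left out, from -0.71 without UE7T-9 Cont replicate 1 to -1.32 without replicate 1 of UE7T-9 SHC4.

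MYLIP, a ubiquitin ligase that marks lipoprotein receptors for degradation, was at 190 to 288 in the controls and 157 to 287 in UE7T-9 SHC4 (log2 fold change -0.17, SE 0.26, adjusted p = 0.803). ABCG1, a sterol exporter to high-density lipoprotein, was not tested: it was at 0, 1.18 and 0 normalized counts in the controls and at 0, 0 and 3.49 in UE7T-9 SHC4, at or under the floor of 3 reads in each library. The receptors themselves, NR1H2 and NR1H3 (LXR beta and alpha), had log2 fold changes of 0.22 and 0.20 and were not called.

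The median within-group SD of the members was 0.37 on the log2 scale, against 0.18 for the 10032 tested genes that were at least as abundant as the lowest tested member. Over all tested genes, low ones included, it was 0.375. The range within at least 1 group was larger than the difference of the group means in 29 of 29 members, as in 86.2% of those 10032 genes, so that this count is close to the background. The members' values within 1 group spread most in TM7SF2, 3.20-fold between lowest and highest in the controls, and least in SCAP, 1.07-fold in the controls.

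**Figure D3:**
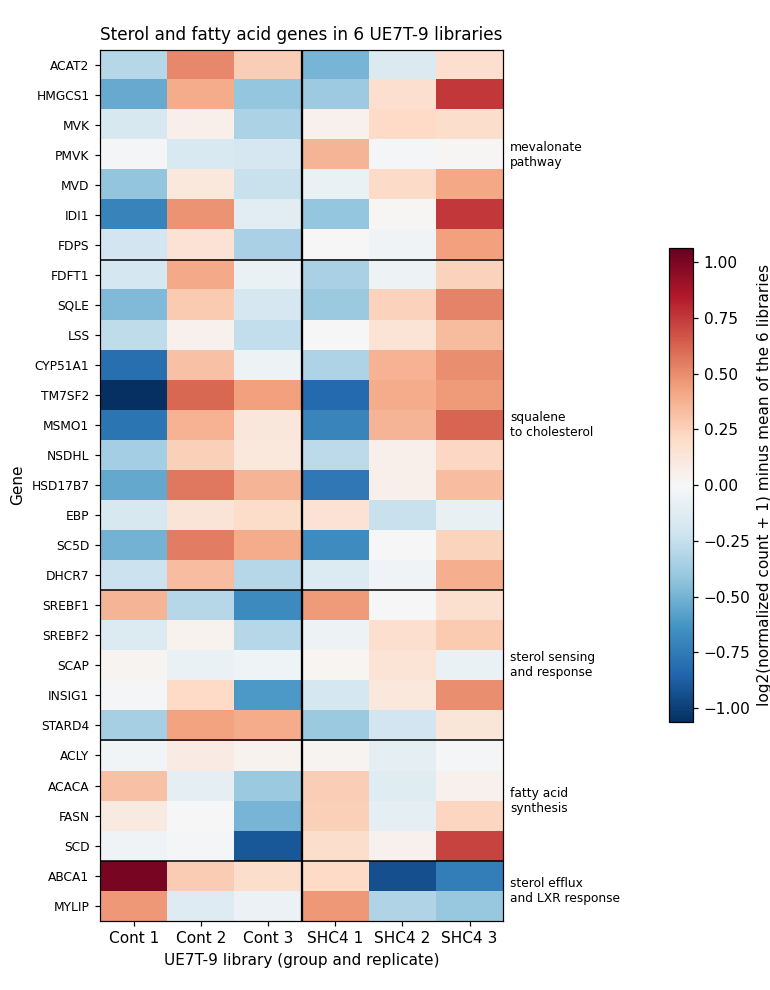
Colour gives log2(normalized count + 1) of each of the 29 tested members in each library, minus the member's mean over the 6 libraries, with members in rows by role and libraries in columns. Replicate 1 is low in both groups for most members from squalene to cholesterol, replicate 2 of the controls and replicate 3 of UE7T-9 SHC4 are high, and ABCA1, SREBF1 and MYLIP are high in replicate 1.

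This spread followed the library. Replicate 1 was the lowest of both groups in 14 of 29 members (48.3%), against 22.4% of the 10032 genes at least as abundant as the lowest tested member. These were ACAT2, HMGCS1, MVD and IDI1 of the mevalonate pathway, STARD4, and 9 of the 11 members from squalene to cholesterol, all but EBP and DHCR7. The opposite order, replicate 1 highest of both groups, was found in 6 members (20.7%, against 24.9%), namely PMVK, SREBF1, ACACA, FASN, ABCA1 and MYLIP. UE7T-9 Cont replicate 2 was the highest of its group in 21 of 29 members (72.4%, against 24.7%) and UE7T-9 SHC4 replicate 3 in 19 of 29 (65.5%, against 35.2%). UE7T-9 SHC4 replicate 3 was the highest of all 6 libraries in 12 members (41.4%, against 14.2%). The order of libraries was partly shared by the 36 related genes introduced below. In them UE7T-9 SHC4 replicate 3 was the highest of its group in 75.0% (against 35.2%). It was the highest of all 6 libraries in 33.3% (against 14.2%). UE7T-9 Cont replicate 2 was the highest of its group in 18 of 36 (against 24.7%). Replicate 1 was the lowest of both groups in 27.8% of the related genes, nearer the background of 22.4% than the 48.3% of the members. Some other orders of the members were near the background. UE7T-9 Cont replicate 3 was the lowest of its group in 37.9% of the members (against 36.9%), and UE7T-9 SHC4 replicate 2 in 31.0% (against 30.3%). The genes are not independent of each other, these counts were not planned, and no test was run on them. The replicate number is a name in the labels, which give no shared day or culture for it.

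Averaged on the log2 scale, the 11 members from squalene to cholesterol stood at 10.08, 10.92 and 10.64 in the control replicates and at 10.18, 10.69 and 10.92 in those of UE7T-9 SHC4. The group means differed by 0.05 and the libraries within a group by 0.84 and 0.73. For the mevalonate pathway the levels were 10.51, 11.07 and 10.65 in the controls and 10.71, 10.91 and 11.24 in UE7T-9 SHC4, a difference of 0.21 beside ranges of 0.56 and 0.53. This difference was 0.06 without UE7T-9 SHC4 replicate 3, 0.09 without UE7T-9 Cont replicate 1 and 0.37 without UE7T-9 Cont replicate 2. The members of fatty acid synthesis were ordered otherwise, at 13.46, 13.37 and 12.94 and at 13.56, 13.31 and 13.62, with UE7T-9 Cont replicate 3 the lowest. ABCA1 and MYLIP together were at 9.45, 8.78 and 8.78 in the controls and at 9.05, 8.09 and 8.15 in UE7T-9 SHC4, with replicate 1 the highest of each group and a difference of -0.57, which was -0.35 without UE7T-9 Cont replicate 1 and -0.89 without replicate 1 of UE7T-9 SHC4.

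**Figure D4:**
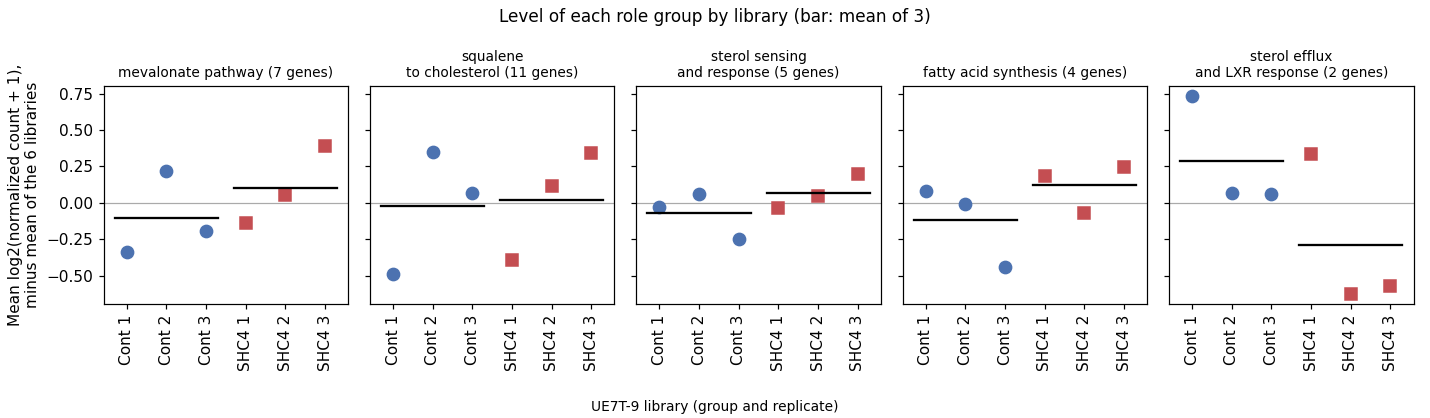
Each panel shows 1 role group in the 6 libraries as the mean over its tested members of log2(normalized count + 1), minus the mean of the 6 libraries, with bars for the mean of 3 libraries. The group means of the steps from squalene to cholesterol differ by 0.05 while its libraries range over 0.84 in the controls and 0.73 in UE7T-9 SHC4.

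A further 36 genes of sterol regulation, sterol transport, isoprenoid synthesis and fatty acid modification were read from the same fit. In 3 of them the groups did not overlap with UE7T-9 SHC4 above (NR1H2, ACACB and FADS2), beside 9.13% of all tested genes. In 7 they did not overlap with it below (OSBP, LBR, GGPS1, HACD3, ME1, ELOVL6 and ACSL4), beside 10.2%. An unadjusted limma p below 0.05 was found for 4 of 36 (ME1, ELOVL6, ACSL4 and ACACB), beside 14.4% of all tested genes. ACACB was higher in UE7T-9 SHC4 (log2 fold change 0.41, limma adjusted p = 0.305). limma called 0 of 36, with 16 log2 fold changes above 0 and 20 below 0 and a median of -0.02. edgeR called 0 (lowest adjusted p = 0.134), and DESeq2 called 3, all lower in UE7T-9 SHC4, where it called 4.14% of all its genes and 2.08% in that direction. All 3 act in fatty acid metabolism. ME1, the cytosolic malic enzyme that supplies NADPH for lipid synthesis, was at 1089, 1370.3 and 1384 normalized counts in the control replicates and at 816, 636 and 861 in those of UE7T-9 SHC4. The groups did not overlap, and the log2 fold change was -0.74 (SE 0.16, limma adjusted p = 0.135, DESeq2 adjusted p = 0.00801).

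ELOVL6, which lengthens palmitate to stearate and so makes the substrate of SCD, was at 878, 1110.2 and 1268 in the controls and at 779.5, 623 and 684 in UE7T-9 SHC4. The groups did not overlap, with a log2 fold change of -0.63 (SE 0.16, limma adjusted p = 0.177, DESeq2 adjusted p = 0.0339). ACSL4, which couples polyunsaturated fatty acids to coenzyme A, was at 3324, 4268 and 4748 in the controls and at 2709.5, 2517 and 2993 in UE7T-9 SHC4. It too had groups that did not overlap and a log2 fold change of -0.57 (SE 0.16, limma adjusted p = 0.187, DESeq2 adjusted p = 0.0378). In all 3 genes UE7T-9 Cont replicate 1 was the lowest of its group. Without it limma called the same 3 genes, with adjusted p values of 0.0153 for ME1, 0.0164 for ELOVL6 and 0.0171 for ACSL4, in the fit that called 5.68% of all genes, with 2.69% of all genes called lower.

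The 2 related genes with the largest log2 fold changes above 0 were not called. NPC1, which moves cholesterol out of lysosomes, was at 9449, 10698 and 5384 in the controls and at 8950.3, 12562 and 15014 in UE7T-9 SHC4 (0.54, SE 0.28, adjusted p = 0.414). FADS2, a desaturase of polyunsaturated fatty acids, was at 10168, 11212 and 6352 in the controls and at 11967, 11434 and 15288.5 in UE7T-9 SHC4, where the groups did not overlap (0.51, SE 0.23, adjusted p = 0.355). Without UE7T-9 Cont replicate 3 the log2 fold changes were 0.24 for NPC1 and 0.26 for FADS2. In both, as in SCD, UE7T-9 Cont replicate 3 was the lowest library and UE7T-9 SHC4 replicate 3 the highest. All 7 other sterol and isoprenoid enzymes (LBR, GGPS1, DHDDS, NUS1, FNTA, PDSS1 and COQ2) had log2 fold changes below 0, from -0.24 to -0.05, none of them called. Exons of ACSL4 (1.22%), FADS2 (4.44%) and NPC1 (5.98%) overlap those of another gene.

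**Figure D5:**
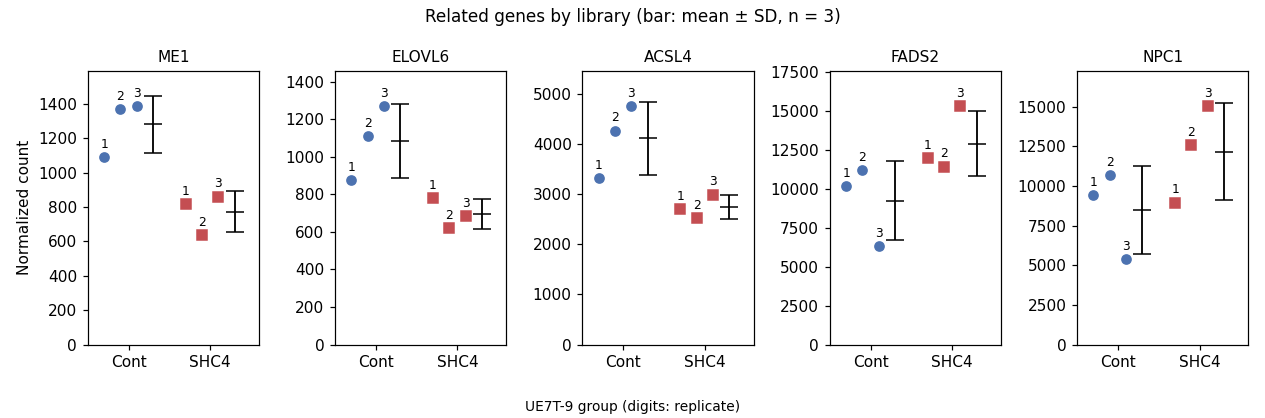
Normalized count of 5 related genes in each library, with the replicate number above each point, circles for UE7T-9 Cont, squares for UE7T-9 SHC4 and bars for mean ± SD (n = 3). The groups do not overlap in ME1, ELOVL6 and ACSL4, which are lower in UE7T-9 SHC4, nor in FADS2, and they overlap in NPC1.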

How the data were processed

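RNA of 3 UE7T-9 Cont and 3 UE7T-9 SHC4 samples was sequenced from NEBNext Ultra libraries. The authors deposited 1 signal value for each gene in each library, a count scaled by the size factor of its library (a normalized count). The submitters' processing notes name HISAT2 2.0.5, featureCounts 1.5.0-p3 and DESeq2; the genome build, annotation and strand setting are not given in the sources used here. All deposited values (100%) were whole multiples of the value of 1 read (tolerance 0.01 reads), so counts were recovered by division. They summed to a median of 20494310 reads per control library and 26347192 per UE7T-9 SHC4 library, and 3 reads correspond to 2.50 to 3.53 normalized counts, which covers counting error only.

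limma 3.58.1 (trend) in R 4.3.3 was run on log2(value + 1), a scale that understates the change of low genes, on the 23040 genes whose mean was 1 or more, with p-values adjusted over all of them by Benjamini and Hochberg and a call at an adjusted p below 0.05. DESeq2 1.42.0 and edgeR 4.0.16 (quasi-likelihood) were run on the recovered reads as alternatives, beside other scalings, filters and pseudocounts, a replicate block and leaving out each library. Gene positions are from GENCODE 29 on GRCh38, matched by identifier; 22854 of 28181 identifiers had a symbol in the name table, all members included.

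The members, role groups and lists were chosen with earlier results of these data known, so they are not independent evidence. Values in every library are given, by the naming rule, for members called by limma or DESeq2, members whose groups do not overlap and the 3 with the highest mean (SCD, INSIG1 and FASN). Related genes are named if called or among the 5 largest changes. ABCA1, ABCG1, SREBF1, HMGCS1, MSMO1 and TM7SF2 were given in full, and other related genes named, after their values were seen.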

Additional observations from a re-analysis of the deposited data

How the results depend on the processing

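Of all genes, 15 were called by limma, 669 by DESeq2, 28 under library size scaling, 25 under TMM, 43 without a filter on low values and 47 with a replicate block. Leaving out 1 library gave 2 to 1311, with 1311 without UE7T-9 Cont replicate 1, 67 without UE7T-9 SHC4 replicate 1, 6 without UE7T-9 Cont replicate 2 and 2 without UE7T-9 SHC4 replicate 2 or 3. The cause was not tested. The count of called members was 0 in limma, DESeq2 and edgeR, 1 with the replicate block (ABCA1, adjusted p = 0.0428, where 0.204% of genes were called) and 0 to 1 when a library was left out (SREBF1, without UE7T-9 Cont replicate 1). The adjusted p of ABCA1 ranged from 0.0428 to 0.612 over its 14 alternatives and that of SREBF1 from 0.0496 to 0.822. Related genes called were 0 in limma, 3 in DESeq2, and 0 to 3 when a library was left out. The labels do not say whether libraries of the same replicate number were handled together, and this was not tested. Same-numbered deviations from the group means correlated at 0.15, 0.01 and -0.01 across genes. Only the libraries numbered 1 correlated best with their own number. The block result can therefore not be read as a paired one.

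The median log2 fold change of the members lay between 0.04 and 0.33 and their count above 0 between 15 and 22. Library size scaling moved the median of all genes by -0.10 and that of the members from 0.19 to 0.08. The number of members whose groups do not overlap was 1, 2 under TMM, and 1 to 8 when a library was left out, which leaves fewer values to separate (24.6% to 40.0% of all genes); it was 8 without replicate 1 of either group or UE7T-9 Cont replicate 2, 3 without UE7T-9 SHC4 replicate 2, and 2 without UE7T-9 Cont replicate 3. Replicate 1 was lowest of both groups in 17 members under library size scaling and 14 under TMM. The difference of the steps from squalene to cholesterol, 0.05, was -0.06 under library size scaling and -0.19 to 0.25 when a library was left out.

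Among single genes, 21 alternative values turned in sign, none of them past the threshold, all in genes whose difference is small beside the spread. TM7SF2 was at -0.0503 in DESeq2, -0.0471 in edgeR, -0.0922 under library size scaling and -0.52 to 0.43 when a library was left out. NSDHL was at 0.0038 under TMM and -0.19 to 0.13 when a library was left out, and SCAP was at -0.0397 under library size scaling. The ranges over left-out libraries were -0.0802 to 0.535 for IDI1, -0.250 to 0.0744 for FDFT1, -0.15 to 0.58 for MSMO1, -0.589 to 0.0659 for HSD17B7, -0.0269 to 0.332 for DHCR7, -0.0423 to 0.308 for ACACA and -0.448 to 0.0128 for MYLIP. Without a change of sign, they were 0.04 to 0.51 for SQLE, 0.05 to 0.61 for CYP51A1, -0.61 to -0.03 for SC5D, -0.54 to -0.13 for ACAT2, 0.11 to 0.41 for FDPS, 0.18 to 0.70 for SREBF1 and 0.08 to 0.37 for FASN, and for the group differences 0.05 to 0.21 in sterol sensing and 0.08 to 0.34 in fatty acid synthesis. At 3 libraries per group, changes within the intervals given above were not detectable, and a call at the adjusted p needed a larger change still.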

Other observations

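Of the adipocyte genes of the list, 5 were tested and none was called, with 3 log2 fold changes below 0 and 2 above 0. FABP4, a fatty acid carrier of adipocytes and endothelial cells, was at 42.9, 65.9 and 68.9 normalized counts in the UE7T-9 Cont replicates and at 16.7, 32.5 and 32.6 in those of UE7T-9 SHC4. The groups did not overlap, as in 19.3% of all genes (10.2% with UE7T-9 SHC4 below), and the log2 fold change of -1.12 (standard error 0.36) had an adjusted p of 0.226 in limma and 0.104 in DESeq2. PPARG, the regulator of adipocyte genes, was at 639 to 809.96 and 534 to 656 (log2 fold change -0.32, adjusted p = 0.352). PLIN1, a lipid droplet protein, had means of 5.10 and 1.81 (log2 fold change -1.11), and LPL was at 0 to 3.90 and 1.16 to 2.64 (0.12). Both lay near the floor of 3 reads. PLIN1 had 3 to 7 reads in UE7T-9 Cont and 1 to 3 in UE7T-9 SHC4, and LPL 0 to 4 and 1 to 3. CEBPA was at 3.90 to 18.8 and 8.79 to 22.1 (0.59). The 6 adipocyte genes of the list summed to 724 to 904 in UE7T-9 Cont and 564 to 713 in UE7T-9 SHC4.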
